A study of Mus musculus with 24 samples.

Results

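Experimental autoimmune myocarditis (EAM) is a mouse model in which immunization against cardiac myosin is followed by inflammation of the heart. The comparison described here is the change of the EAM effect from 10 to 15 days after the first immunization: the log2 difference between EAM and control hearts at D15 minus that at D10. It uses 16 of the 24 hearts of the study, 4 in each of 4 groups, and 16039 of 41388 genes, those that reached 10 reads in 4 or more of the 16 hearts. All mice were wild-type male BALB/cAnNCrl, given as Balb/c in the labels, 8 to 10 weeks old when immunized. D10 EAM and D15 EAM mice received 100 µg of a peptide of the cardiac myosin heavy chain alpha in supplemented complete Freund's adjuvant on day 0 and again on day 7, with pertussis toxin on day 0. D10 control and D15 control mice received the same adjuvant, schedule and toxin with PBS in place of the peptide, so what the EAM effect leaves out is the response to adjuvant and toxin. RNA was taken from a portion of each heart. Hearts for sequencing were chosen as far as possible for the presence of inflammation, which limits the EAM groups as a random sample of immunized mice. The paper reports that no D10 EAM mouse had raised cardiac leucocytes (CD45+ cells) or raised cardiac troponin I. At D15 it reports both as significantly raised in EAM mice. Each library is a separate heart by its label, and the labels do not say whether D10 and D15 mice were immunized together.

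Autoimmune myocarditis is driven by CD4 T cells that recognize myosin, after which monocytes, macrophages and neutrophils enter the myocardium. Interferon gamma from T and NK cells raises antigen presentation and a family of antimicrobial GTPases, while activated fibroblasts lay down collagen and matricellular proteins. The working cardiomyocyte lives mainly on mitochondrial oxidation of fatty acids, and its contraction rests on sarcomere proteins, calcium cycling and ion channels.

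The total counts of the 16 libraries lay between 16578239 and 24980864. Values are given as CPM, a gene's read count scaled to the size of its library after TMM normalization (edgeR's trimmed mean scaling), and differences are on the log2 scale. A gene is called when edgeR's quasi-likelihood test gives a Benjamini-Hochberg FDR under 0.01 and the difference is at least 2-fold. All 16 hearts carried cardiac muscle transcripts, with Myh6 (alpha myosin heavy chain) between 1756 and 13816 CPM. Libraries stood apart in 2 respects. D10 EAM replicate 1 had a quality weight of 0.1205 in limma-voom, the lowest of the 16, and Ptprc, which encodes the leucocyte antigen CD45, at 190 CPM against 27.4, 56.0 and 41.7 CPM in the other D10 EAM hearts. Atrial transcripts differed between hearts of one group. The mean log2(CPM + 1) of Sln, Myl7, Myl4 and Bmp10 was 4.07 to 5.32 in D10 control, 5.91 to 8.30 in D10 EAM and 5.84 to 7.93 in D15 EAM hearts, and in D15 control hearts it was 8.07, 8.44 and 8.30 in replicates 1 to 3 but 4.35 in replicate 4.

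The EAM effect grew between D10 and D15 in both directions. The difference was called higher for 993 genes (6.19% of those tested) and lower for 1308 genes (8.16%), and 9052 genes had an unadjusted p under 0.05. Over all genes tested, the median log2 difference was -0.03. Genes called higher had a median log2 EAM effect of 0.49 at D10 and 2.14 at D15, and those called lower went from -0.21 to -1.51. For 796 of the genes called higher and 1280 of those called lower, the D10 effect was under 2-fold. At D15 the effect was at least 2-fold in the called direction for 974 and 1266 of them.

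Without D10 EAM replicate 1, there were 2126 higher and 1854 lower calls among 15970 genes tested, which are 13.3% and 11.6%. These held 988 of the 993 higher and 1307 of the 1308 lower calls made with all 16 hearts, which are 46.5% and 70.5% of the larger lists. Over the fits that left out 1 of the other 15 hearts, the calls ran from 662 to 1141 higher and from 919 to 1783 lower. Both upper ends were from the fit without D15 EAM replicate 3. Its quality weight of 0.337 was the lowest after that of D10 EAM replicate 1. With the atrial score as a covariate, an alternative chosen after the data were seen, 0 genes passed at FDR 0.01 by the same edgeR test, where the lowest adjusted p was 0.0135 and 7067 genes had an unadjusted p under 0.05. At FDR 0.05 and 2-fold, that fit called 980 higher and 1129 lower. In it, all 993 higher and 1307 of the 1308 lower calls kept their sign, with median log2 differences of 1.64 in place of 1.67 and -1.21 in place of -1.31. The score followed the crossed pattern of the 4 groups, which makes the variance of the contrast 1.56 times larger in that design. The atrial share of the tissue and the groups therefore cannot be fully told apart. As in any bulk sample, fewer cells of a type and less RNA per cell cannot be told apart either.

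**Figure D1:**
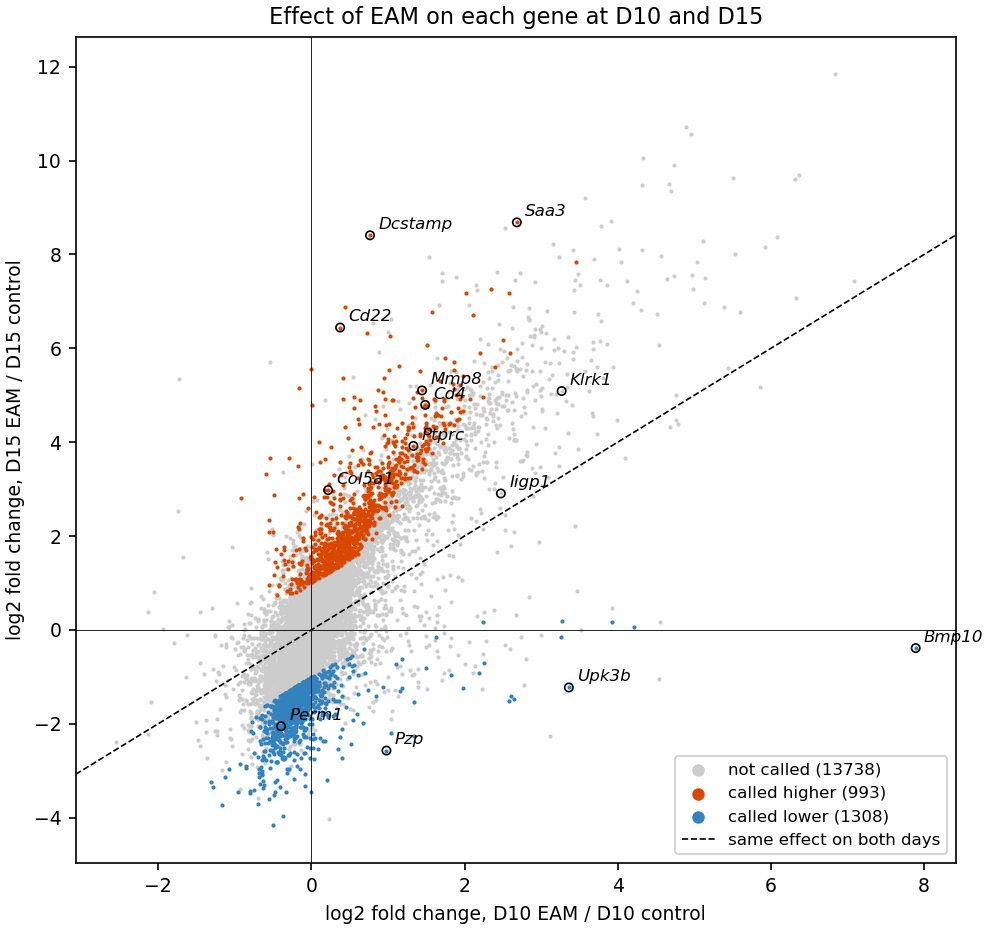
Each point is 1 of 16039 genes, with its log2 fold change between EAM and control hearts at D10 on the x axis and at D15 on the y axis (4 hearts in each group). The 993 genes called higher for the difference lie above the dashed line of equal effects and the 1308 called lower lie below it, and most of both lie close to 0 on the D10 axis.

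Far more genes were called over time in EAM than in control hearts. From D10 EAM to D15 EAM, 1707 genes were called higher (10.6% of those tested) and 1504 lower (9.38%). Of the genes called for the difference, 805 higher and 1113 lower ones were also called in that direction between the EAM groups, a count that describes genes chosen by a difference that contains the EAM change. Between D10 control and D15 control hearts, edgeR's quasi-likelihood test called 0 genes, with 1205 at an unadjusted p under 0.05 and a lowest adjusted p of 0.0165. The edgeR likelihood ratio test called 27 higher and 50 lower in the controls, DESeq2 22 and 50, and limma-voom 0 and 0. Control hearts nevertheless contributed to single genes. Their fitted change was at least 2-fold against the called direction for 89 of the genes called higher and 29 of those called lower, and it was larger than that of the EAM hearts for 56 and 38 genes.

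**Figure D2:**
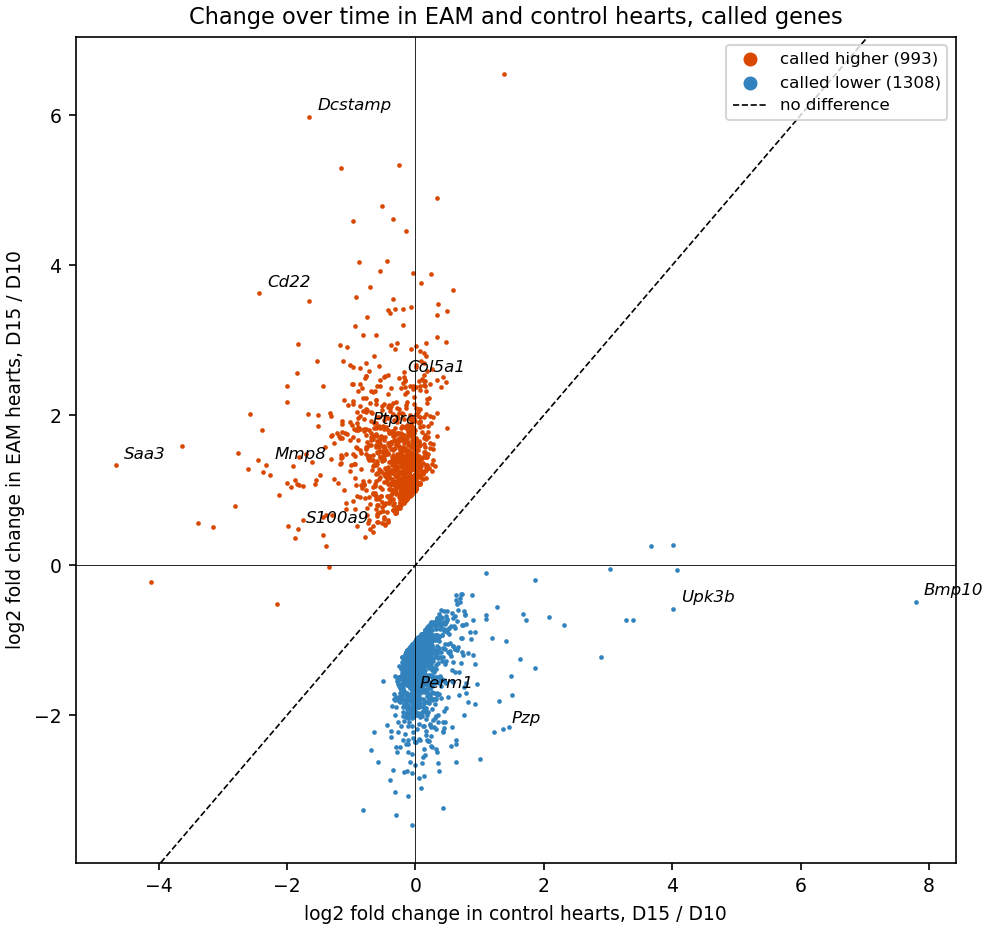
For the called genes only, the x axis gives the log2 fold change from D10 to D15 in control hearts and the y axis that in EAM hearts, with 4 hearts in each group. Most genes called higher (993) or lower (1308) spread along the y axis, while Saa3, Bmp10 and Upk3b spread along the x axis, where control hearts moved.

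Ptprc (ENSMUSG00000026395, chromosome 1 from 138062861 to 138175708, GRCm38) marks leucocytes. It lay at 38.6, 34.1, 28.7 and 24.2 CPM in D10 control hearts and at 190, 27.4, 56.0 and 41.7 CPM in D10 EAM hearts. In D15 control hearts it was at 17.0, 16.7, 17.9 and 21.0 CPM and in D15 EAM hearts at 304, 254.5, 241 and 299 CPM. Every D15 EAM heart was above every other heart, and D10 EAM replicate 1 came nearest. The log2 EAM effect was 1.33 at D10 and 3.92 at D15, a difference of 2.59 (standard error 0.61, adjusted p = 0.00380). The difference was 3.51 without D10 EAM replicate 1, and without D10 EAM replicate 3 the call was lost (adjusted p = 0.0105).

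Among 15 genes of the T cell receptor complex and its coreceptors, 2 (13.3%) were called higher, beside 6.19% of all genes, and the rest were not called, although 14 had a positive difference. The median log2 effect was 1.74 at D10 and 4.28 at D15, with a median difference of 2.41. Without D10 EAM replicate 1 the D10 median was 0.70, and 14 of the 15 were called higher, beside 13.3% of all genes in that fit. The 2 genes called with all hearts were Cd4 and, named after its values were seen, Cd8a, the coreceptors of helper and cytotoxic T cells. Cd4 (ENSMUSG00000023274, chromosome 6 from 124864692 to 124888221) was at 1.43, 1.03, 0.678 and 1.20 CPM in D10 control, 7.17, 0.898, 2.86 and 1.005 CPM in D10 EAM, 0.631, 0.655, 0.832 and 0.477 CPM in D15 control and 20.8, 20.7, 11.9 and 19.7 CPM in D15 EAM hearts. Its difference was 3.31 (standard error 0.78, adjusted p = 0.00388, and 0.0106 without D10 control replicate 1). The D15 EAM hearts did not overlap any other group for Cd4, while D10 EAM replicates 2 and 4 lay within the controls. Cd28, a costimulatory receptor, had the highest mean of the list but a difference of -0.44 (95% interval -0.95 to 0.07, adjusted p = 0.138), with 7.30 to 10.8 CPM in D15 EAM and 11.1 to 12.6 CPM in D15 control hearts.

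Of the 11 tested genes of 17 T helper cytokines and regulators, 0 were called higher and 1 (9.09%) lower, near the 8.16% of all genes called lower. Bcl6, a transcriptional repressor of follicular helper T cells and many other cells, was at 39.7 to 66.0 CPM in all hearts, with a difference of 0.17 (95% interval -0.17 to 0.51). The median of the list was 1.31, and without D10 EAM replicate 1 it was 3.40, with 2 genes called higher and 1 lower, where 13.3% and 11.6% of all genes were. Il17f, Il5, Il10, Il21, Il22 and Il2 had too few reads to be tested.

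None of 13 genes of NK and cytotoxic lymphocytes was called by edgeR's quasi-likelihood test with all hearts, although all 13 had a positive difference, with a median of 2.55, and 9 had an unadjusted p under 0.05. Without D10 EAM replicate 1, 10 of the 13 were called higher. Over all genes, the share called higher was 6.19% with all hearts and 13.3% in that fit. Klrk1, which encodes the activating receptor NKG2D, lay at 13.1 CPM in D10 EAM replicate 1 and at 0.449, 1.76 and 0.688 CPM in replicates 2 to 4, against 0.155 to 0.970 CPM in the D10 controls and 5.92 to 19.6 CPM in D15 EAM hearts. That heart lay inside the D15 EAM range for Klrk1. Its difference was 1.82 (95% interval -1.36 to 5.002, adjusted p = 0.320) with all hearts and 3.90 (adjusted p = 0.00364) without that heart. Ctsw, the protease cathepsin W of cytotoxic cells, had the smallest p of the list, with a difference of 3.02 (adjusted p = 0.0169, and 4.72e-04 without D10 EAM replicate 1).

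Myeloid genes had calls with all 16 hearts. Of 16 monocyte and macrophage genes, 9 were called higher, beside 6.19% of all genes, with a median difference of 2.40, and all 16 were called without D10 EAM replicate 1, beside 13.3%. Csf1r (ENSMUSG00000024621, chromosome 18 from 61100598 to 61132149), the receptor for the macrophage growth factor CSF1, was at 99.2 to 140 CPM in D10 control and 285, 122, 169 and 145 CPM in D10 EAM hearts. At D15 it was at 94.4 to 111 CPM in control and 581, 544.5, 419 and 591 CPM in EAM hearts, above all other hearts. The difference was 1.79 (standard error 0.30, adjusted p = 0.00129). Lyz2, the lysozyme of myeloid cells, was at 1814 to 2649 CPM in D15 EAM hearts and at 1777, 428, 906 and 549 CPM in D10 EAM hearts. Its difference of 1.95 (adjusted p = 0.00710) passed in 4 of the 16 fits with a heart left out.

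For neutrophil genes, both the EAM and the control hearts contributed to the difference. Of 16 neutrophil genes, 6 were called higher, beside 6.19% of all genes, with a median difference of 2.92, and 12 without D10 EAM replicate 1, beside 13.3%, with a median of 3.85. The median log2 change was 1.47 in EAM hearts and -1.68 in control hearts from D10 to D15. The control median was also below 0 in other inflammatory lists. It was -0.70 for chemokines and receptors, -0.66 for monocyte and macrophage genes, -0.62 for complement and -0.59 for adhesion molecules. The IL-1 family had -0.33, the T cell receptor list -0.23 and NK genes -0.03. T helper genes were at 0, interferon-inducible GTPases at 0.10 and MHC class II genes at 0.14. S100a9, a calcium-binding alarmin of neutrophils, was at 64.8, 69.1, 99.9 and 54.1 CPM in D10 control hearts and at 5.89, 34.3, 22.0 and 19.1 CPM in D15 control hearts. In EAM hearts it was at 278, 66.95, 134 and 114 CPM at D10 and 187, 285, 176 and 183 CPM at D15. The EAM groups therefore overlapped for S100a9 while the control groups did not. The difference for S100a9 was 2.31 (adjusted p = 0.00813) and passed in 5 of 16 fits with a heart left out. Mmp8, the neutrophil collagenase, was at 4.35 to 15.9 CPM in D10 control and 0.893 to 2.80 CPM in D15 control hearts, and at 59.9, 9.76, 13.4 and 14.2 CPM in D10 EAM and 45.6, 123, 42.6 and 34.8 CPM in D15 EAM hearts. Its difference of 3.66 (standard error 0.89, adjusted p = 0.00453) is a change of 1.33 in EAM hearts minus one of -2.33 in controls, and the call was lost in 5 of 16 fits with a heart left out, those without D10 control replicate 3, D10 EAM replicates 3 and 4 and D15 control replicates 1 and 3 (adjusted p of up to 0.0113). The control change was not called for either gene (edgeR adjusted p = 0.182 for S100a9 and 0.302 for Mmp8). In the same control hearts the median log2 change from D10 to D15 was -3.70 over 8 platelet transcripts and -1.69 over 11 acute-phase genes. In EAM hearts the platelet median was -2.23. The part of platelets and blood in the neutrophil difference was not tested.

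Signals that recruit leucocytes were called in 1 direction only. Among 32 tested chemokines and receptors, 9 were called higher and 0 lower, with all 32 differences above 0 and a median of 2.15, and 23 were called higher without D10 EAM replicate 1, with a median of 3.37. These counts, and those of the lists that follow, stand beside 6.19% higher calls over all genes, and 13.3% without that heart. Ccr7, which guides dendritic and T cells, was at 0.265 to 2.04 CPM in D10 EAM and 4.68 to 7.67 CPM in D15 EAM hearts, with a difference of 4.26 (standard error 0.70, adjusted p = 0.00129). It was at 0.452 to 0.685 CPM in D10 control and 0.158 to 0.26 CPM in D15 control hearts, the latter with 14 reads in all. The difference of Ccr7 is a change of 2.72 in EAM minus one of -1.53 in control hearts. Cxcl12, a chemokine made by resident stromal cells, was at 367 to 603 CPM in D15 EAM and 285 to 359 CPM in the other 12 hearts. Its difference of 0.88 (adjusted p = 0.00147) passed the FDR but was under 2-fold. Of 18 genes of the IL-1 family and the inflammasome, 5 were called higher with a median of 1.57, and 17 without D10 EAM replicate 1 with a median of 2.37. Il1r1, the signalling receptor for IL-1, was at 112 to 132 CPM in D15 EAM and 32.3 to 80.9 CPM in all other hearts, with a difference of 1.47 (standard error 0.23, adjusted p = 0.00129). Of 15 adhesion molecules and leucocyte integrins, 7 were called higher with a median of 2.31, and 12 without that heart. Vcam1, the endothelial ligand of the integrin alpha 4 beta 1, was at 117, 70.5, 78.4 and 58.3 CPM in D10 EAM and 177, 140, 150 and 187 CPM in D15 EAM hearts. Its difference was 1.40 (adjusted p = 0.00198). Itgb1, the integrin beta 1 chain of many cell types, had a difference of 0.35 (95% interval 0.10 to 0.60, adjusted p = 0.0251).

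Interferon-inducible GTPases had a median difference of 0.94, the smallest of the inflammatory lists among the 21 main ones. Their median log2 effect was 1.84 at D10 and 2.91 at D15, and 0 of 13 tested genes were called by edgeR's quasi-likelihood test, with 0 at an unadjusted p under 0.05. Without D10 EAM replicate 1 the D10 median was 0.91, the median difference was 2.02, and 9 were called higher, beside 13.3% of all genes. In that fit the median difference of complement was smaller, at 1.60. Iigp1 was at 1245, 93.7, 581 and 144 CPM in D10 EAM hearts and 904, 653, 1224 and 949.5 CPM in D15 EAM hearts, against 46.4 to 223 CPM in the 8 controls. D10 EAM replicate 1 was higher for Iigp1 than every D15 EAM heart. The difference was 0.43 (95% interval -1.51 to 2.38, adjusted p = 0.709), and 1.35 without that heart (adjusted p = 0.149). Tgtp1 had the smallest p of the list, with a difference of 1.45 (adjusted p = 0.137) and 33.3 CPM in D10 EAM replicate 1 beside 24.5 to 46.4 CPM in D15 EAM hearts. Tgtp1 and Tgtp2 are near-identical neighbours, so their reads are uncertain. In companion lists, 22 type I interferon-stimulated antiviral genes and 11 genes of MHC class I and the immunoproteasome likewise had 0 calls by that test, with 8 and 4 genes at an unadjusted p under 0.05 and medians of 0.79 and 0.99, and had 17 and 9 higher calls without D10 EAM replicate 1, with medians of 1.43 and 1.501.

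The promoters of the GTPases show what the family shares in sequence. RefSeq promoters of GRCm38.p6, reaching from 250 bases before to 50 bases after the transcription start, were found for 11569 of the 15941 tested genes with a symbol. Both strands were searched for GAAANNGAA, a core of interferon-stimulated response elements, and TTCNNNGAA, a core of interferon gamma-activated sites. The first was present in 8 of 9 GTPase promoters and in 7.42% of all promoters, and the second in 5 of 9 and in 6.98%. Among genes called higher for the difference the shares were 8.88% and 6.28%, and among genes called lower 6.90% and 5.85%, all near those of all genes. In Tgtp1 (chr11:48992197-48992496, minus strand) and Irgm2 (chr11:58214727-58215026, plus strand) both cores lie side by side, which is why these promoters are shown, 5′ to 3′ with the matches in capitals.
Tgtp1: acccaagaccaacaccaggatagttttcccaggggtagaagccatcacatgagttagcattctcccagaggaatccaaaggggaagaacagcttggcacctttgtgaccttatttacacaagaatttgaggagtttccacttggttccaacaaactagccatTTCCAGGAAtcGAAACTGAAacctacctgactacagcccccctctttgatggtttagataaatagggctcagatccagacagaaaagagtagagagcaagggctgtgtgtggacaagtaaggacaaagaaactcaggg
Irgm2: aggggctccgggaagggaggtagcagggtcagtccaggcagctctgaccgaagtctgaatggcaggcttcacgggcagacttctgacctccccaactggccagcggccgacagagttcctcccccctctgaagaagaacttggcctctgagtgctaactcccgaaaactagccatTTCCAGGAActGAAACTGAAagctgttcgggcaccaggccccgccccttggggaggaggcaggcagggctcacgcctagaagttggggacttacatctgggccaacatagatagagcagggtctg
A match describes the letters only and says nothing about binding. Irgm2, chosen for its promoter and outside the naming rule, was at 429, 74.1, 247 and 79.7 CPM in D10 EAM and 334, 257, 448 and 366 CPM in D15 EAM hearts, and at 30.5 to 121 CPM in the 8 controls. D10 EAM replicate 1 lay inside the D15 EAM range for Irgm2, replicate 3 just under it, and replicates 2 and 4 inside the range of the controls.

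MHC class II genes, whose products present antigen to CD4 T cells, had calls with all 16 hearts. Of 11 genes, 6 were called higher, beside 6.19% of all genes, and 0 lower, with a median log2 effect of 1.498 at D10 and 3.87 at D15, and 9 were called without D10 EAM replicate 1. H2-Eb1 (ENSMUSG00000060586, chromosome 17 from 34305867 to 34316674), a class II beta chain, was at 182.5, 43.8, 110 and 48.9 CPM in D10 EAM hearts and 776, 527, 440 and 766.5 CPM in D15 EAM hearts, with 34.7 to 65.3 CPM in the controls. The D15 EAM hearts were above all others for H2-Eb1, and the difference was 2.56 (standard error 0.53, adjusted p = 0.00204). Cd74, the invariant chain that escorts class II molecules, was at 780, 175, 438 and 201 CPM in D10 EAM and 1470 to 2378 CPM in D15 EAM hearts. Its difference of 2.15 (adjusted p = 0.00509) was lost in 7 of 16 fits with a heart left out, at adjusted p of up to 0.0126.

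With all 16 hearts, complement held the highest share of calls among the inflammatory lists, with 15 of 22 genes higher and 1 lower, beside 6.19% and 8.16% of all genes. The counts were 14 and 1 without D10 EAM replicate 1, and in that fit the share of higher calls was below those of the monocyte and macrophage, IL-1, T cell receptor and MHC class II lists, among others. The median log2 effect was 0.41 at D10 and 2.004 at D15. C1qa, a chain of the recognition molecule C1q made by macrophages, was at 182, 157, 208 and 150 CPM in D10 EAM and 380, 356, 227 and 398 CPM in D15 EAM hearts. In control hearts C1qa was at 97.5 to 147 CPM at D10 and 70.8 to 93.1 CPM at D15, so the control groups did not overlap either. Its difference was 1.60 (standard error 0.24, adjusted p = 0.00126), which is a change of 0.97 in EAM minus one of -0.63 in control hearts. C3, the central component of the cascade, was at 1592 to 2612 CPM in D15 EAM hearts and 296.5 to 1123 CPM in the other 12. Its difference was 1.86 (standard error 0.33, adjusted p = 0.00135), which is a change of 1.025 in EAM minus one of -0.84 in control hearts. The gene called lower was Cd59a, an inhibitor of the membrane attack complex, which is named after its values were seen, with a difference of -1.08.

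Genes of the cell cycle and DNA replication had 1 sign, and called members were no more frequent than over all genes. All 32 differences were positive with a median of 1.29, yet 2 genes (6.25%) were called higher, beside 6.19% of all genes, and 3 more passed the FDR below 2-fold. Without D10 EAM replicate 1, 26 of the 32 were called higher, beside 13.3% of all genes in that fit, and the median was 1.85. The list score, which is the mean log2(CPM + 1) over a list, was 3.71 in D10 EAM replicate 1 and 2.32, 2.79 and 2.51 in the other D10 EAM hearts. The 8 controls lay at 2.11 to 2.68 and the D15 EAM hearts at 4.04 to 4.48. Rrm1, a subunit of ribonucleotide reductase, was at 35.8, 22.8, 25.98 and 27.2 CPM in D10 EAM and 48.0, 56.7, 43.1 and 46.3 CPM in D15 EAM hearts. Its difference was 0.76 (standard error 0.17, adjusted p = 0.00289). Pcna, the sliding clamp of DNA polymerases, had a difference of 0.33 (95% interval 0.01 to 0.65, adjusted p = 0.0772). The 2 called genes, named after their values were seen, were Mcm3 of the replicative helicase (1.23) and Pole, the catalytic subunit of DNA polymerase epsilon (1.27). TTTNGCGC, a core of E2F sites, was present in 6 of 25 promoters of the list, against 2.22% of all promoters and 1.91% of those called higher. Mcm6, another helicase subunit, chosen for its promoter in the same way, has 3 matches in its promoter (chr1:128359656-128359955, minus strand), shown in capitals, 5′ to 3′, because it holds this core more than once. The first run of capitals holds 2 overlapping matches, 1 on each strand.
Mcm6: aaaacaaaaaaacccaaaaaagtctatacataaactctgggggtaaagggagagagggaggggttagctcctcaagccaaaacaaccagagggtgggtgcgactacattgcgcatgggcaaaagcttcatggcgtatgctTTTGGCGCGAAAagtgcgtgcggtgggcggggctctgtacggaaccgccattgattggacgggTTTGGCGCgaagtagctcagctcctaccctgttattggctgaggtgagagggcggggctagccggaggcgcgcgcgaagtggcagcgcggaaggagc
Mcm6 was at 22.4, 7.13, 13.3 and 8.46 CPM in D10 EAM and 27.8, 36.75, 27.2 and 26.6 CPM in D15 EAM hearts, with a difference of 1.10 that did not pass (adjusted p = 0.0373).

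The matrix lists had nearly the same number of calls with and without D10 EAM replicate 1. Of 22 collagens, 12 were called higher and 2 lower, with or without that heart. The shares of all genes were 6.19% and 8.16% with it and rose to 13.3% and 11.6% without it. The lower calls of the list (9.09%) lay near the shares of all genes called lower. Their median log2 effect was -0.01 at D10 and 1.24 at D15, with a median difference of 1.24. Col5a1 (ENSMUSG00000026837, chromosome 2 from 27886425 to 28039514), which starts the assembly of collagen fibrils, was at 115, 91.5, 83.6 and 79.8 CPM in D10 control and 133, 97.9, 110.5 and 89.4 CPM in D10 EAM hearts. At D15 it was at 89.0, 59.3, 75.9 and 84.6 CPM in control and 572, 782, 316 and 765 CPM in EAM hearts. The D10 groups overlapped, the D15 groups did not, and the difference was 2.76 (standard error 0.34, adjusted p = 0.00101). Col3a1, a fibrillar collagen of scar tissue, was at 2048, 1040, 1398 and 815 CPM in D10 EAM and 6289, 6369, 3673 and 6750 CPM in D15 EAM hearts, with a difference of 2.63 (standard error 0.45, adjusted p = 0.00129). The genes called lower were Col4a3 (-1.78) and Col4a4 (-1.53), chains of a basement membrane collagen, named after their values were seen. Other fibrillar chains, named in the same way, were Col1a1 (3.76), Col1a2 (3.20) and Col11a1 (4.97), all called higher, while Col6a1 (0.52), Col6a2 (0.33) and Col4a1 (0.64) were not called.

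Of 22 matricellular and crosslinking proteins, 13 were called higher and 1 lower, beside the same shares of all genes, and 14 and 1 without D10 EAM replicate 1. Loxl2 (ENSMUSG00000034205, chromosome 14 from 69609068 to 69695834), an enzyme that crosslinks collagen, was at 42.7, 32.6, 41.0 and 31.0 CPM in D10 EAM and 134, 163, 85.8 and 148 CPM in D15 EAM hearts, with 22.9 to 39.0 CPM in the 8 controls. The difference was 2.03 (standard error 0.26, adjusted p = 0.00101). Sparc, a collagen-binding glycoprotein, was at 557 to 736 CPM in D10 EAM and 1027 to 2471 CPM in D15 EAM hearts, with a difference of 1.57 (standard error 0.30, adjusted p = 0.00157). Named after their values were seen, Fn1 (3.52), Lox (4.05), Tnc (4.60) and Spp1 (4.93) had large called differences, and Acta2, the smooth muscle actin of arteries and myofibroblasts, was the gene called lower (-1.39). Acta2 was at 488 to 732 CPM in D15 control and 193 to 236 CPM in D15 EAM hearts. D15 EAM replicate 3 was lowest of its group for Col5a1, Col3a1, Loxl2 and Sparc and lay above every heart of the other groups for each. Resident fibroblast genes had 0 calls among 10, in the quasi-likelihood test of edgeR, where 3 had an unadjusted p under 0.05 and the median difference was -0.33. Without D10 EAM replicate 1 they had 1 lower call, beside 11.6% of all genes in that fit.

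**Figure D3:**
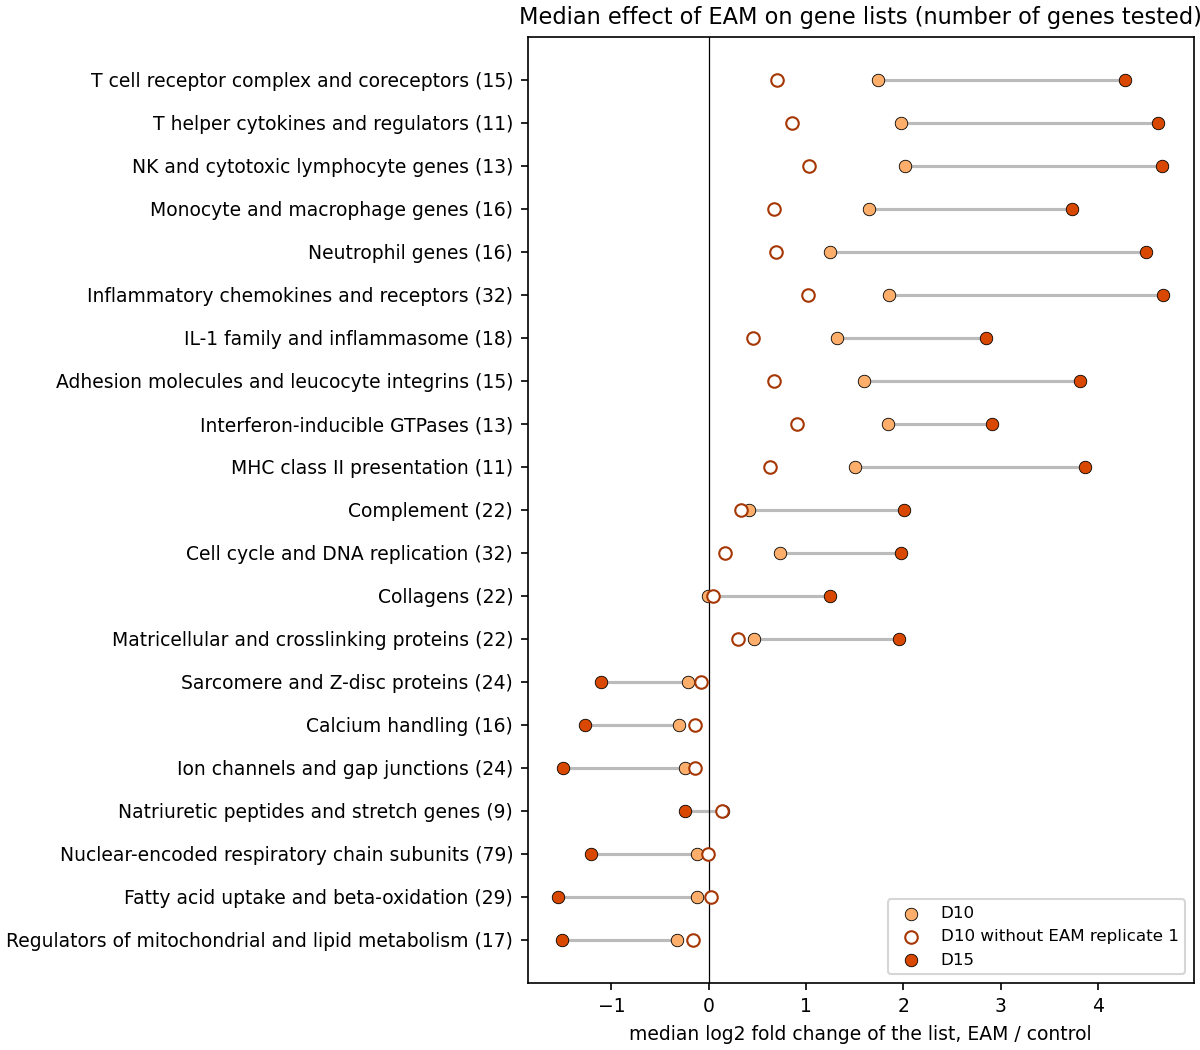
For each of 21 gene lists (number of genes tested in brackets), the x axis gives the median log2 fold change between EAM and control hearts at D10, at D10 without EAM replicate 1, and at D15. The open D10 points lie left of the filled ones for leucocyte, interferon and cell cycle lists, and both lie near 0 for collagens (-0.01 and 0.04) and fatty acid oxidation (-0.12 and 0.02).

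Cardiomyocyte genes were called lower or not at all, where 8.16% of all genes were called lower. Of 24 sarcomere and Z-disc genes, 0 were called higher and 7 (29.2%) lower, 5 passed the FDR below 2-fold, and the median difference was -0.89. Csrp3, a muscle LIM protein of the Z-disc, was at 519 to 631 CPM in D15 EAM hearts and 799 to 1067 CPM in the other 12. Its difference was -0.70 (standard error 0.13, adjusted p = 0.00139). Myh6 was at 3040, 1756, 7993 and 3918 CPM in D15 EAM and 6209, 13465, 9745 and 13089 CPM in D10 EAM hearts, so that those groups overlapped, with a difference of -1.22 (95% interval -2.30 to -0.13, adjusted p = 0.05905). Of 16 calcium handling genes, 8 were called lower and 0 higher, with a median of -1.05. Trdn (ENSMUSG00000019787, chromosome 10 from 33080554 to 33476709), which anchors the calcium release complex, was at 390, 409, 396 and 441 CPM in D10 control and 259, 401, 370 and 381 CPM in D10 EAM hearts. At D15 it was at 407, 396, 395 and 407 CPM in control and 148, 115, 190.5 and 134 CPM in EAM hearts, below all the others. Its difference was -1.24 (standard error 0.20, adjusted p = 0.00129). Atp2a2, the calcium pump SERCA2, had a difference of -1.07 (95% interval -1.79 to -0.36) that did not pass with all hearts (adjusted p = 0.0167) and did without D10 EAM replicate 1 (adjusted p = 0.00342).

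Ion channels and gap junction genes had 11 lower calls of 24 (45.8%), beside 8.16% of all genes, with a median difference of -1.20. Gja3, a connexin, was at 6.96, 4.80, 8.35 and 5.998 CPM in D15 EAM hearts and at 11.4 to 23.3 CPM in all other hearts, with a difference of -1.59 (standard error 0.22, adjusted p = 0.00119). Gja1, which encodes the main ventricular connexin 43, was at 320 to 442 CPM in D15 EAM and 479 to 652 CPM in the other hearts. Its difference of -0.55 (adjusted p = 0.00891) passed in 2 of 16 fits with a heart left out. Named after their values were seen, Kcnip2, the subunit of the transient outward potassium current (-2.37), Scn4b, a sodium channel subunit (-2.04), and Hcn2, a pacemaker channel (-1.82), were called lower. Of 9 natriuretic peptide and stretch genes, 1 (11.1%) was called lower, near the 8.16% of all genes, and 0 higher. Ankrd1, a stretch-responsive ankyrin protein, had EAM effects of 0.40 at D10 and 0.35 at D15 and a difference of -0.04 (95% interval -0.57 to 0.48, adjusted p = 0.895), whose sign changed with the scaling. Npr2, a receptor of C-type natriuretic peptide, was at 33.5 to 48.3 CPM in D15 EAM and 49.9 to 86.5 CPM in the other 12 hearts, with a difference of -0.84 (adjusted p = 0.00423, and 0.0102 without D15 EAM replicate 1), under 2-fold. The gene called lower, named after its values were seen, was Npr3, the clearance receptor (-1.43).

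Respiratory chain and fatty acid genes held the highest shares of lower calls among the 21 lists. Of 79 nuclear-encoded respiratory chain subunits, 57 were called lower, beside 8.16% of all genes, and 0 higher, 19 more passed the FDR below 2-fold, and 78 differences were negative. Their median log2 effect was -0.12 at D10 and -1.20 at D15. Without D10 EAM replicate 1, 72 were called lower, beside 11.6% of all genes in that fit. Ndufb6 (ENSMUSG00000071014, chromosome 4 from 40270591 to 40279421), a complex I subunit, was at 125, 126, 128 and 146 CPM in D10 control and 99.2, 128, 145 and 122 CPM in D10 EAM hearts. At D15 it was at 127, 130, 120 and 135 CPM in control and 56.3, 46.9, 73.1 and 50.2 CPM in EAM hearts. The D15 EAM hearts were below the other 12, and the difference was -1.09 (standard error 0.18, adjusted p = 0.00129). Atp5b, the catalytic beta subunit of ATP synthase, was at 2941, 4403, 4065 and 3888 CPM in D10 EAM and 1857, 1407, 2502 and 1689 CPM in D15 EAM hearts, with a difference of -0.96 (adjusted p = 0.00425). It no longer passed in 5 of 16 fits with a heart left out, those without D10 control replicates 1 and 2, D10 EAM replicates 2 and 3 and D15 EAM replicate 4 (adjusted p of up to 0.0107). The subunit with a positive difference was Cox6a1 (0.13), the form of its subunit found in most tissues, while Cox6a2, the heart and muscle form, was called lower (-1.09), both named after their values were seen. Of 13 messenger RNAs encoded in mitochondrial DNA, 2 (15.4%) were called lower, beside 8.16% of all genes, and 0 higher, and 6 differences were positive. Their lower calls were 4 without D10 EAM replicate 1, beside 11.6% of all genes.

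Fatty acid uptake and beta-oxidation had 25 lower calls of 29, beside 8.16% of all genes, with a median log2 effect of -0.12 at D10 and -1.55 at D15. The lower calls were 28 without D10 EAM replicate 1, beside 11.6% of all genes in that fit. Slc25a20 (ENSMUSG00000032602, chromosome 9 from 108662088 to 108684641), which carries acylcarnitines into mitochondria, was at 205.5, 228, 214 and 223 CPM in D10 control and 141, 233, 214 and 201 CPM in D10 EAM hearts. At D15 it was at 190, 194.5, 196 and 197 CPM in control and 71.3, 56.0, 97.2 and 55.5 CPM in EAM hearts. Its difference was -1.33 (standard error 0.23, adjusted p = 0.00131). Lpl, the lipase that releases fatty acids from lipoproteins, had a difference of -1.03 (95% interval -1.68 to -0.38) and did not pass with all hearts (adjusted p = 0.0127). Named after its values were seen, Ucp3, a mitochondrial carrier, had the most negative difference of the list (-3.41), at 3.19 to 8.02 CPM in D15 EAM and 19.6 to 90.1 CPM in all other hearts. In companion lists, 19 of 20 genes of the tricarboxylic acid cycle and pyruvate entry and 13 of 18 of branched-chain amino acid breakdown were called lower, with medians of -1.18 and -1.22. Glycolysis and lactate genes had 5 higher (23.8%) and 3 lower (14.3%) calls of 21, beside 6.19% and 8.16% of all genes. Among regulators of metabolism, 8 of 17 were called lower and 0 higher, with a median of -1.16. Perm1, a muscle coactivator of mitochondrial genes, was at 122, 68.3, 197 and 116 CPM in D15 EAM and 231, 520, 417 and 492 CPM in D10 EAM hearts, with a difference of -1.66 (standard error 0.38, adjusted p = 0.00343). Tfam, the transcription factor of mitochondrial DNA, was at 31.0 to 39.4 CPM in D15 EAM and 49.1 to 72.8 CPM in the other hearts, with a difference of -0.78 (standard error 0.12, adjusted p = 0.00129).

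Of 10 endothelial genes 2 were called lower, beside 8.16% of all genes (median -0.52). Across hearts of D15 EAM, the mildest was replicate 3 and the furthest from its controls was replicate 2 in each of the 7 metabolic and cardiomyocyte lists among the 21, although replicate 3 lay 0.01 above its controls for the natriuretic list. Companion lists did not all share that order: for mitochondrially encoded messenger RNAs replicate 4 was furthest from its controls (-0.68) and replicate 2 nearest (-0.13), and for glycolysis replicate 1 was furthest (0.52). For fatty acid genes the list score was 7.73 in replicate 3 and 6.62 in replicate 2, against 8.63 to 8.70 in D15 controls. The leucocyte transcript Ptprc was higher in D15 EAM hearts than in the others but did not follow the same order within the group, at 254.5 CPM in replicate 2, 304 and 299 CPM in replicates 1 and 4 and 241 CPM in replicate 3. Mitochondrially encoded genes took 3.19% to 4.31% of the counts in D15 EAM and 5.04% to 7.69% in the other 12 hearts. The part of a lower share of cardiac muscle RNA in these differences was not tested.

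D10 EAM hearts differed from each other by list. Expressed as a share of the mean shift of the D15 EAM hearts from their controls, the score of the interferon-inducible GTPases had moved 112.7% in D10 EAM replicate 1, 56.3% in replicate 3, and 5.60% and 12.9% in replicates 2 and 4. For the T cell receptor list these shares were 66.45%, 25.9%, 1.655% and 2.335% in replicates 1, 3, 2 and 4. For the cell cycle list they were 77.8%, 24.1%, -3.87% and 7.59%. Respiratory chain subunits had moved 41.9% in replicate 1 and -7.63%, 0.0669% and 9.065% in replicates 3, 2 and 4. Collagens had moved between -0.774% and 5.73% in the 4 hearts, 3.34% in replicate 1. The other matrix lists differed from collagens: matricellular and crosslinking proteins had moved 44.3% in replicate 1 and 20.1%, 14.4% and 7.503% in replicates 3, 2 and 4, and matrix metalloproteinases and inhibitors 48.5%, 22.0%, 20.01% and 6.61%. Among collagens, replicate 1 was the highest of its group for Col3a1 and Col5a1, whose values are given above. These shares describe single hearts and were not tested.

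**Figure D4:**
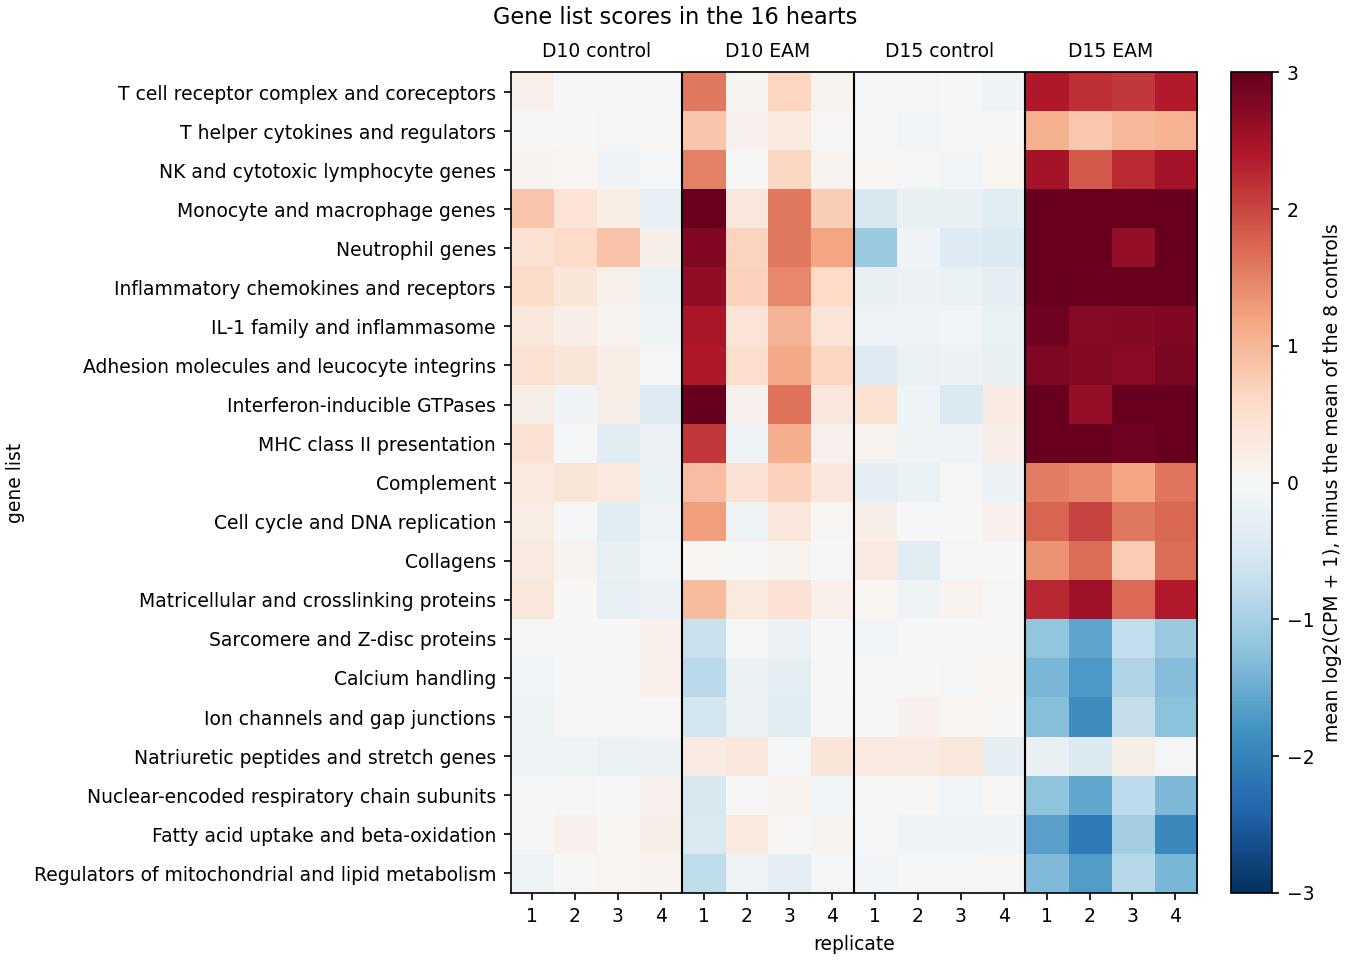
Rows are 21 gene lists and columns the 16 hearts, and the colour is the list score (mean log2(CPM + 1)) minus its mean over the 8 control hearts, cut at -3 and 3. D10 EAM replicate 1 shares the direction of the D15 EAM hearts for leucocyte and interferon lists, to an extent that differs by list. Its score was below theirs for T cell receptor genes (2.35 beside 2.88 to 3.16) and inside their range for neutrophil genes (4.93 beside 4.79 to 6.03). It was above theirs for interferon-inducible GTPases (7.89 beside 7.23 to 7.83). For collagens its score was 5.80 beside 5.525 to 6.003 in D10 controls.

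The largest positive differences among called genes with at least 1 CPM belonged to Dcstamp, Ighg1, Cd22, Saa3, Serpinb9b and Jchain. Dcstamp (ENSMUSG00000022303, chromosome 15 from 39745930 to 39760938), needed for the fusion of osteoclasts and giant cells, was at 6.51, 8.18, 4.64 and 8.04 CPM in D15 EAM hearts and at most 0.2245 CPM in the other 12, of which 6 had no read. Its fitted difference of 7.64 (95% interval 4.06 to 11.23) rests on counts near 0 outside D15 EAM, and its call was lost without D10 control replicate 1 (adjusted p = 0.0189) and fell below the read filter in 4 of 16 fits with a heart left out. Ighg1 and Jchain, an immunoglobulin heavy chain and the joining chain of secreted antibodies, both vary with plasma cells. Ighg1 was at 7.38, 38.1, 2.30 and 13.65 CPM and Jchain at 5.18, 29.8, 1.002 and 10.04 CPM in D15 EAM hearts, with at most 0.619 and 0.742 CPM elsewhere. D15 EAM replicate 2 was highest and replicate 3 lowest for both. Their differences were 6.44 and 5.31, and 4.25 and 3.65 with the atrial covariate. Dcstamp, Ighg1 and Jchain reached the read filter through the D15 EAM hearts, where they were high, so that their calls are descriptions. The call of Ighg1 was lost without D10 control replicate 2 (adjusted p = 0.0368), and that of Jchain in 8 of 16 fits with a heart left out, including the one without D10 EAM replicate 1 (adjusted p of up to 0.0176). Cd22, a B cell inhibitory receptor, was at 13.9, 18.2, 3.47 and 14.8 CPM in D15 EAM and 0.440 to 2.17 CPM in D10 EAM hearts, with a difference of 6.07 (adjusted p = 0.00129). It was at 0.282 to 1.43 CPM in D10 control and 0.0596 to 0.26 CPM in D15 control hearts, the latter with 10 reads in all. The difference of Cd22 is a change of 3.63 in EAM minus one of -2.44 in control hearts. Of 11 B cell and plasma cell genes, however, only Cd22 and Jchain were called (18.2%, beside 6.19% of all genes), and the median difference was 1.68. In the fit without D10 EAM replicate 1, 1 of the 11 was called. Serpinb9b, a serpin of the granzyme inhibitor family whose copies can share reads, was at 33.3, 109.5, 4.68 and 53.6 CPM in D15 EAM and 0.617 to 2.52 CPM in D10 EAM hearts, with a difference of 5.59 (adjusted p = 0.00283).

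For Saa3 and for 5 of the 6 named genes with the largest negative differences, all but Aldh3b3, the fitted change from D10 to D15 was larger in control than in EAM hearts. Saa3 (ENSMUSG00000040026, chromosome 7 from 46711998 to 46715700), an acute-phase serum amyloid protein made in inflamed tissue, was at 41.8, 38.2, 19.7 and 0.802 CPM in D10 control hearts and at 0.736, 1.13, 1.25 and 0.834 CPM in D15 control hearts. In EAM hearts it was at 374, 39.7, 186 and 47.6 CPM at D10 and 435, 531, 318 and 353 CPM at D15. D10 control replicate 4 alone was at the D15 control level. The difference was 6.003 (standard error 1.24, adjusted p = 0.00204), which is a change of 1.34 in EAM hearts minus one of -4.67 in controls.

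Bmp10 (ENSMUSG00000030046, chromosome 6 from 87428994 to 87437677), a growth factor of the atrium, had the most negative difference, -8.28 (95% interval -12.06 to -4.50, adjusted p = 0.00238). It was at 1.14, 0.155, 0 and 0.802 CPM in D10 control, 134, 163.5, 7.05 and 183 CPM in D10 EAM, 124, 159, 171 and 0.357 CPM in D15 control and 48.75, 50.8, 155 and 93.85 CPM in D15 EAM hearts. Expression was thus near 0 in 5 hearts, the 4 D10 controls and D15 control replicate 4, and the D15 groups overlapped. With the atrial score, of which Bmp10 is a member, as a covariate the difference was -0.92. Of 7 atrial-type transcripts, 5 (71.4%) were called lower, beside 8.16% of all genes, with a median log2 change of -0.61 in EAM hearts and 2.09 in control hearts. Upk3b, Lrrn4 and Msln, which mark the mesothelium that covers the heart, followed the same hearts. Upk3b was at 0.342, 1.44, 0.452 and 1.67 CPM in D10 control and 20.3, 13.8, 26.7 and 2.03 CPM in D15 control hearts, against 6.12 to 17.4 CPM in D10 EAM and 3.11 to 10.2 CPM in D15 EAM hearts. The differences of Upk3b, Lrrn4 and Msln were -4.59, -4.14 and -3.75 (adjusted p = 0.00180, 0.00728 and 0.00572). With the atrial covariate these differences were -2.52, -2.002 and -2.09, and did not pass. The calls of Lrrn4 and Msln were lost in 11 and 7 of 16 fits with a heart left out. Cybrd1, a ferric reductase, and Aldh3b3, an aldehyde dehydrogenase, had differences of -4.11 and -3.61, and both were lowest among D15 controls in replicate 4. With that covariate they were -2.49 and -0.59, and did not pass (adjusted p = 0.0896 and 0.545). The call of Aldh3b3 was lost in 4 of the 16 fits. The sources used do not say which part of the heart each portion held, and for these genes tissue sampling and the EAM effect at D10 cannot be told apart.

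**Figure D5:**
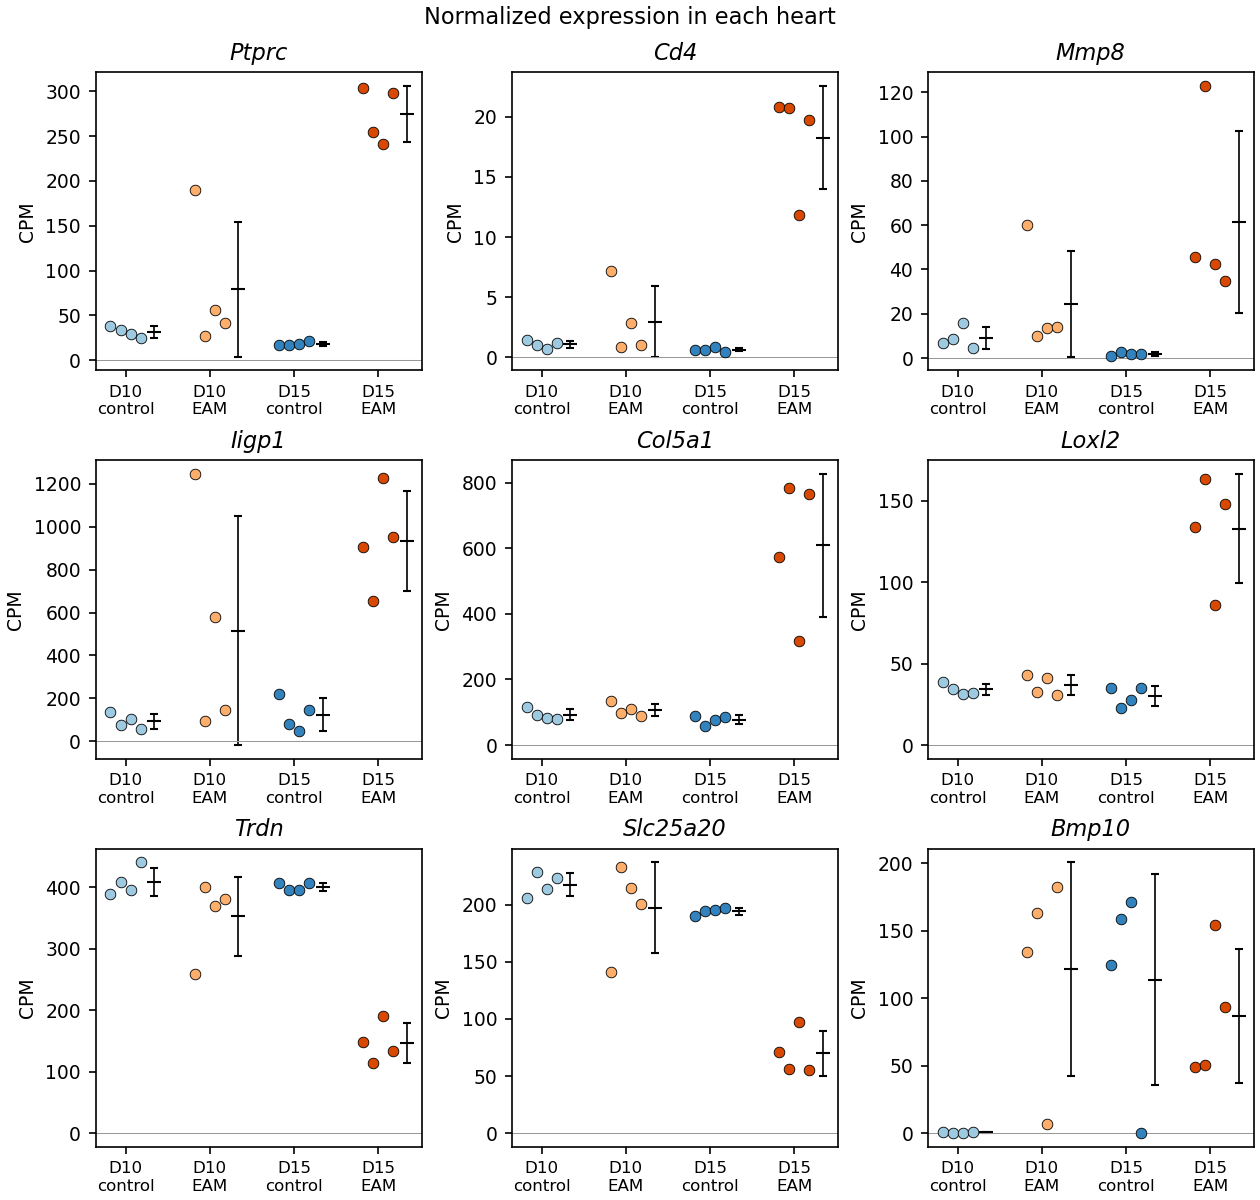
Each panel gives the CPM of 1 gene in the 16 hearts, 4 per group in order of replicate number, with the mean and SD of each group beside the points on a linear axis. Ptprc, Cd4, Mmp8 and Iigp1 are high in D10 EAM replicate 1, Col5a1, Loxl2, Trdn and Slc25a20 separate D15 EAM from all other hearts, and Bmp10 is near 0 in D10 controls and D15 control replicate 4.

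In 84 genes the fitted EAM effects at D10 and D15 were both at least 1.5-fold and of opposite sign. Of these, 27 were called for the difference, 25 of them higher than controls at D10 and lower at D15. The 4 of these genes with the smallest p had low expression. Pzp, a protease inhibitor related to alpha-2-macroglobulin, was at 0.565 to 0.825 CPM in D10 control, 0.913 to 2.01 CPM in D10 EAM, 1.31 to 2.21 CPM in D15 control and 0.104 to 0.543 CPM in D15 EAM hearts. Within each day the EAM and control hearts did not overlap for Pzp, and the difference was -3.55 (standard error 0.52, adjusted p = 0.00123). Wnt2, a secreted Wnt ligand, had effects of 0.85 at D10 and -1.41 at D15, with a difference of -2.25 (adjusted p = 0.00129). Urah, an enzyme of urate breakdown, had effects of 0.59 and -1.80 with a difference of -2.39 (adjusted p = 0.00135). Tmem132e, a membrane protein, had fitted effects of -0.59 and 3.31 with a difference of 3.90, at 0.919 to 2.19 CPM in D15 EAM and at most 0.309 CPM in the other hearts. The other 12 hearts held 1 to 6 reads each, so Tmem132e reached the read filter only through D15 EAM and its call is a description. Its D10 effect rests on 11 reads in EAM against 15 in control hearts (standard error 0.54) and does not establish an opposite sign.

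Of the 58 genes named by rule, 46 passed the FDR for the difference and 39 of these were at least 2-fold. For 30 of the 46 the FDR was passed with each of the 16 hearts left out in turn, 15 lost it without at least 1 heart, and Tmem132e fell below the read filter in some of these fits. Those 30 include Col5a1, Col3a1, Sparc, Loxl2, Trdn, Csrp3, Ndufb6, Slc25a20, Perm1 and Tfam of the matrix, cardiomyocyte and metabolic lists and Csf1r, Ccr7, Il1r1, Vcam1, H2-Eb1, C3 and C1qa of the inflammatory lists. With all 16 hearts, 536 of the 993 higher and 771 of the 1308 lower calls were made in each of these 16 fits.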

How the data were processed

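Hearts of EAM and control mice were profiled by bulk RNA sequencing. Per the submitters' processing notes and the paper, the authors aligned reads to GRCm38 with HISAT2 2.0.4 and removed duplicate reads with Picard. They counted the remaining reads per gene with featureCounts and deposited raw counts, whole numbers per Ensembl gene and heart. The 92 spike-in entries held 0 reads and were left out, and 0 columns belonged to other samples. Groups followed the sample titles.

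Counts of 16 hearts were filtered (at least 10 reads in at least 4 hearts), TMM-scaled and fitted by edgeR 4.0.16 (R 4.3.3) with 1 mean per group. The quasi-likelihood test was applied to 3 contrasts: the difference of the EAM effects, the change in EAM hearts and the change in control hearts, each Benjamini-Hochberg adjusted over 16039 genes. A call needs FDR under 0.01 and 2-fold. Effects within a day are fitted values without calls. Intervals are 95%. A count of 0 allows up to 3 counts, which is 0.1201 to 0.181 CPM, for counting error only. The scripts were tested on simulated data. Other normalizations, filters, tests (DESeq2 1.42.0, limma-voom with limma 3.58.1), replicate blocks and leaving out each heart were compared, and the atrial covariate was added after seeing the data. Summaries used pandas 2.3.3 and numpy 2.4.6 under Python 3.11.15, and figures matplotlib 3.10.9.

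Genes, lists and tests were chosen with earlier results of these data known. Genes were named by rule: the 6 largest positive and 6 largest negative differences among genes called and averaging 1 CPM or more, the most abundant gene and that with the smallest p in each of 21 lists, Ptprc, the 4 genes with the smallest p among those with opposite effects of at least 1.5-fold, and genes called in control hearts, of which there were 0. Other genes are said to be named after their values were seen. Results for some genes are not reported here. Another 26 lists are described by counts and medians.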

Additional observations from a re-analysis of the deposited data

Results flagged for a closer look

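Single hearts lay far from the other 3 of their group, by Dixon's criterion at 95%, in 20 of 316 groups of 4 values, where chance gives about 1 in 20. D10 EAM replicate 1 accounted for 6 of these, at 9.65 CPM for Lrrn4, 2.52 for Serpinb9b, 13.1 for Klrk1, 59.9 for Mmp8, 755 for Itgb1 and 33.3 for Tgtp1, all high. D15 EAM hearts accounted for another 6. Replicate 3 was low at 11.9 CPM for Cd4 and 3673 for Col3a1. Replicate 2 was low at 5.92 CPM for Klrk1 and 1781 for Ankrd1, and high at 285.2 for S100a9 and 122.9 for Mmp8. In control hearts, D15 replicate 2 stood apart at 0.238 CPM for Serpinb9b and at 0.0596 for Dcstamp, which is 1 read beside 0 in the other 3 hearts, where any single read would stand apart, D15 replicate 1 at 0.5255 for Jchain and D10 replicate 4 at 146 for Ndufb6. List scores stood apart at 0.917 for the T cell receptor list in D10 control replicate 1, 4.655 for complement in D10 control replicate 4, 7.26 for natriuretic peptides in D15 control replicate 4 and 8.70 for fatty acid oxidation in D15 control replicate 1.

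The difference between the D15 and D10 effects is itself a tested difference between groups, and it was past the FDR for the 993 and 1308 called genes and for 46 named ones. The log2 differences of inflammatory and immunoglobulin genes were 7.64 for Dcstamp, 6.44 for Ighg1, 6.07 for Cd22, 6.003 for Saa3, 5.59 for Serpinb9b, 5.31 for Jchain, 4.26 for Ccr7, 3.66 for Mmp8, 3.31 for Cd4, 2.59 for Ptprc, 2.56 for H2-Eb1, 2.31 for S100a9, 2.15 for Cd74, 1.95 for Lyz2, 1.86 for C3, 1.79 for Csf1r, 1.60 for C1qa, 1.47 for Il1r1, 1.40 for Vcam1 and 0.88 for Cxcl12. Those of matrix and replication genes and of Tmem132e were 2.76 for Col5a1, 2.63 for Col3a1, 2.03 for Loxl2, 1.57 for Sparc, 0.76 for Rrm1 and 3.90 for Tmem132e. Dcstamp, Ighg1, Jchain and Tmem132e reached the read filter through the D15 EAM hearts, where they were high, so that their values are descriptions. Negative values in cardiomyocyte and metabolic genes were -1.66 for Perm1, -1.59 for Gja3, -1.33 for Slc25a20, -1.24 for Trdn, -1.09 for Ndufb6, -0.96 for Atp5b, -0.84 for Npr2, -0.78 for Tfam, -0.70 for Csrp3 and -0.55 for Gja1. The remaining ones were -8.28 for Bmp10, -4.59 for Upk3b, -4.14 for Lrrn4, -4.11 for Cybrd1, -3.75 for Msln, -3.61 for Aldh3b3, -3.55 for Pzp, -2.39 for Urah and -2.25 for Wnt2.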

How the results depend on the processing

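The difference was called higher for 993 and lower for 1308 genes. The counts became 1628 higher at FDR 0.05, 1835 higher and 2959 lower without the fold limit, 2355 and 2040 by limma-voom with quality weights, and 0 and 0 with the atrial covariate. With 1 heart left out they ran from 662 to 2126 and from 919 to 1854. The share of higher calls was 43.2% with TMM, 55.7% with total counts only (1136 and 902 calls, where the median of all genes shifted to 0.11), 52.0% by DESeq2 (1395 and 1286) and 53.6% with quality weights. In EAM hearts over time, 1707 higher and 1504 lower calls became 3696 and 4426 without the fold limit, 986 lower with total counts only, and 1323 to 2418 and 1170 to 1929 with 1 heart left out. In control hearts the 0 and 0 calls became 1 and 14 with all 24 hearts in the fit, 27 and 50 by the likelihood ratio test, 22 and 50 by DESeq2, 11 lower at FDR 0.05, 7 lower without the low-count filter, and 0 to 10 and 0 to 11 with 1 heart left out. Replicate numbers did not pair the hearts: deviations of EAM and control hearts of 1 number correlated between -0.0994 and 0.347, and a replicate block gave 1311 and 1192 calls within a day and 1154 and 1240 across both. The difference of Ankrd1 (-0.04) changed sign to 0.00777 with relative log expression factors, 0.00776 with DESeq2, 0.0909 with total counts, 0.131 with quality weights and 0.202 with the atrial covariate, and ran from -0.1685 to 0.0943 with 1 heart left out. The causes were not tested. Over the named genes and all alternatives, 1465 values kept their direction and their side of the threshold, 172 no longer passed, 26 newly passed and 10 changed sign. With 4 hearts a group, a median standard error of 0.21 over all genes and counts near 0 in genes such as Dcstamp limit what can be called.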

Other observations

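Counts of further gene groups stand beside 6.19% higher and 8.16% lower calls over all genes tested, and 13.3% and 11.6% without D10 EAM replicate 1. Of 13 immune checkpoint and costimulation genes, which restrain or license T cells, 3 were called higher (median log2 difference 2.53), and 12 without D10 EAM replicate 1. Of 11 enzymes of arginine, itaconate and tryptophan metabolism, used by activated macrophages, 3 were called higher (median 2.41), and 7 without that heart (median 4.185). Among 11 dendritic cell genes 5 were called higher (median 1.91), among 11 genes of the IL-6 family 5 (median 1.80), and among 11 acute-phase genes 4 (median 2.41). Macrophage states differed in their medians, with 4 higher calls of 10 lipid-associated macrophage genes (median 1.18) and 3 of 10 resident macrophage genes (median 0.31). Of 16 matrix metalloproteinases and inhibitors, which remodel the matrix, 8 were called higher and 1 lower (median 1.39).

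Immediate early genes had 5 higher calls of 17 (median 0.89) and targets of the integrated stress response 2 of 14 (median 0.91), which became 8 without D10 EAM replicate 1 (median 1.34). Platelet transcripts had 2 higher calls of 8 (median 1.60). Circadian clock genes had 1 higher and 2 lower calls of 16 (median 0.02) and iron and heme genes 1 and 1 of 10 (median 0.47), counts that lie near the shares over all genes. The iron and heme counts were 2 and 1 without D10 EAM replicate 1. Of 6 tested mast cell and eosinophil genes 1 was called lower (median -0.34). Red blood cell genes (6 tested, median -0.63) and white adipocyte genes (6 tested, median -1.11) had 0 calls by edgeR's quasi-likelihood test, with 0 and 3 at an unadjusted p under 0.05.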
